A study of Mus musculus with 16 samples.

Results

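The genes described here build the contacts between epithelial cells: adherens junctions, desmosomes, tight junctions, the polarity complex that places them, and a few regulators and markers of epithelial adhesion and splicing. A list of 34 such genes was matched by gene identifier, found in RefSeq from the symbol, to the platform annotation of a mouse bead array, among 16593 genes that the annotation names. Of these, 29 had a probe, 42 probes in all. The list held 5 adherens junction genes, 9 desmosome genes, 15 tight junction genes, 2 polarity genes and 3 genes of adhesion and splicing. Desmoplakin (Dsp), Pard6b, Pkp4, Epcam and cingulin (Cgn) had no probe under their gene identifier and are not analysed here.

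The values come from TUBO, a cell line grown out of a BALB-neuT mammary carcinoma; in this mouse strain an activated rat neu (ErbB2) transgene drives the tumours. It received 200 nM of a hairpin inhibitor of the microRNA miR-135b (anti-miR-135b), or 200 nM of a negative control hairpin inhibitor, labelled scrambled and called control here. Each arm was profiled at 24 h with 2 samples, at 48 h with 3 and at 72 h with 3, which gives 6 groups and 16 arrays. All groups are the same single line and carry the same transgene, and no label says whether samples of a group came from separate cultures, so p-values measure the spread between these samples, which may be technical. The study asked which transcripts respond to silencing of this microRNA.

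Adherens junctions hold neighbouring cells together through E-cadherin, whose tail binds beta-catenin and through it alpha-catenin and the actin cytoskeleton. Desmosomes do the same for keratin filaments through desmogleins, desmocollins, plakoglobin, plakophilins and desmoplakin. Tight junctions close the space between cells with claudins and other membrane-spanning proteins tied to ZO scaffold proteins, and mammary carcinoma cells that lose the epithelial state often lose members of all 3 kinds.

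The microRNA that the inhibitor was directed against is shown first. RefSeq places the hairpin of Mir135b at chr1:132198088-132198184 on the plus strand of GRCm38.p6. The mature 3p arm is in capitals, and the other arm of the hairpin is not marked. The labels do not name the arm that the inhibitor was designed for, so the capitals do not mark its target.
Mir135b: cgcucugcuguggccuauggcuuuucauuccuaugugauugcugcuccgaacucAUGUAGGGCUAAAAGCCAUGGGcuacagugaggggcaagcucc

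Arrays had median intensities of 281.2 to 346.8 and upper quartiles of 375.8 to 529.4. The median correlation of an array with the others lay between 0.917 and 0.949. The arrays lay on 2 chips. Chip 1 held both arms at 48 h and the 24 h controls, and chip 2 held both arms at 72 h and the 24 h anti-miR-135b samples, so in the 24 h comparison the chip cannot be told apart from the inhibitor. At 48 and 72 h the inhibitor samples took positions D to F and the controls A to C, so arm and position cannot be told apart there. At 24 h both arms took positions G and H. Of the mammary epithelial markers on the array, 6 of 10 passed the filter on dim probes (Krt8, Krt18, Cdh1, Elf5, Krt7 and Krt14), with a mean log2 level of 11.06 to 12.05 over samples. For fibroblasts 4 of 10 passed (Vim, S100a4, Col1a2 and Pdgfra), with a mean log2 level of 7.22 to 7.77 over samples. For leukocytes 1 of 5 passed, Cd14, at 12.99 to 15.33, a level above the mean of the 6 epithelial markers. This sets 1 gene beside a mean over 6 genes, and no other leukocyte marker passed the filter. For endothelium 1 of 5 passed, Kdr, at 6.37 to 8.

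Values below are normalized log2 intensities, in which 1 unit is a doubling. Probes were kept where their 16-array mean exceeded 7.1, the median over the whole array. This left 12848 probes, among them 30 probes of 22 junction genes. The 3 adherens junction genes kept were Cdh1, Ctnna1 and Ctnnb1. P-cadherin (Cdh3, 4 probes) and p120-catenin (Ctnnd1) did not pass. Desmosomes kept Dsg2, Pkp1, Pkp2, Pkp3 and Perp, without plakoglobin (Jup) and desmocollin 2 (Dsc2). Tight junctions kept 11 genes and lost Cldn6, Cldn8 and tricellulin (Marveld2). Pard3, Esrp1 and Esrp2 were kept. The dimmest kept members were Perp, with a mean of 7.14, and 1 probe of Pard3, with 7.15. The brightest that did not pass were Cldn6, with 6.99, and a probe of Cdh3, with 6.87. Samples of the genes that did not pass ran from 5.75 to 7.49, and they enter no count below.

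**Figure D1:**
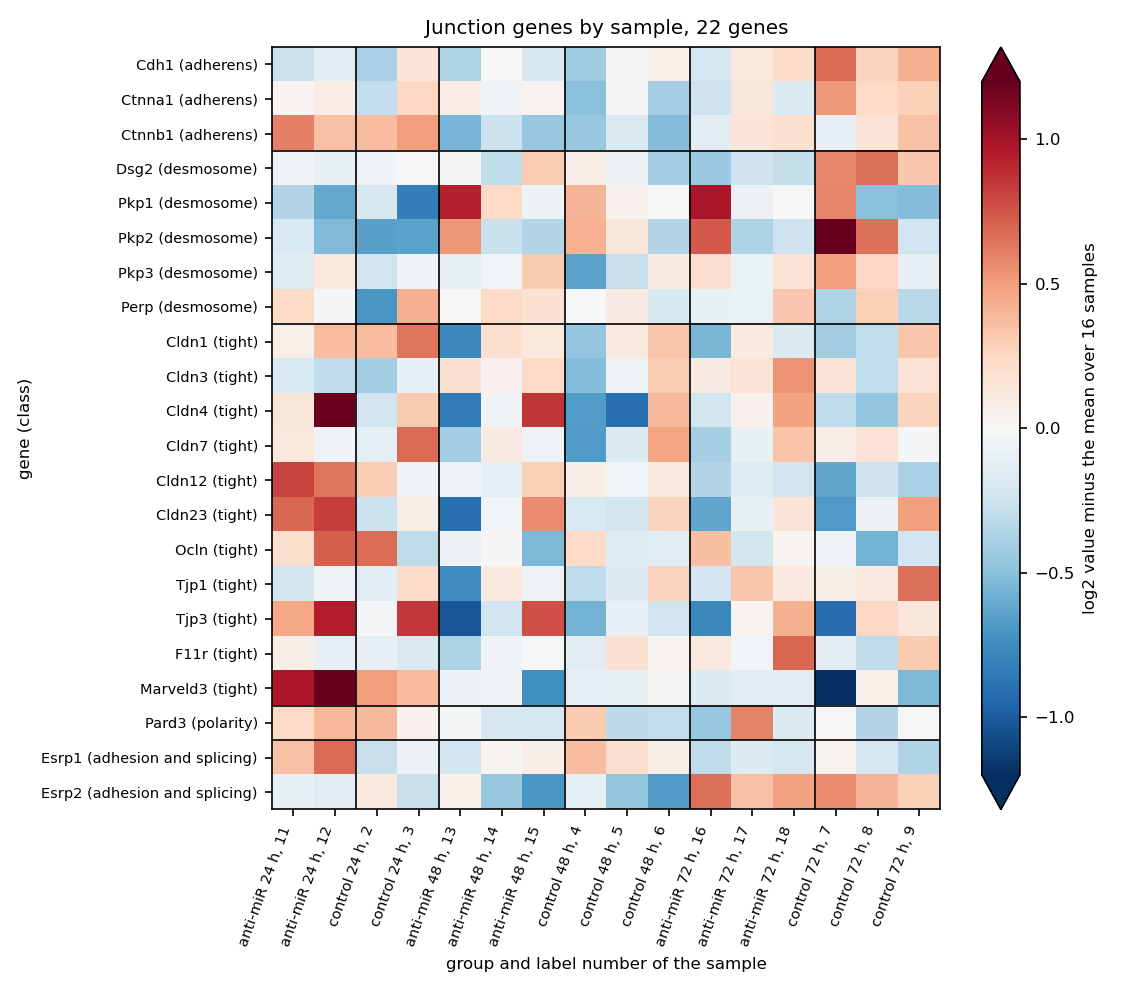
Each row is a junction gene with its class and each column a sample, grouped by arm and time; colour gives the log2 value of the gene's brightest kept probe minus its mean over the 16 samples, cut at 1.2. The highest cells include Marveld3 in the 24 h anti-miR-135b samples (11.41 and 11.86) and Pkp2 in control sample 7 at 72 h (11.62).

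The inhibitor difference at 48 h, taken within chip 1, had no junction gene past the threshold. None of the 30 member probes passed an adjusted p of 0.05, against 0% of all 12848 probes, and 0 had an unadjusted p under 0.05, against 6.24% of all probes. In 1 of the 30 (lower) the arms did not overlap, against 10.2% of all probes and 5.5% lower. The 22 genes had a median difference of -0.03 (anti-miR-135b minus control), with 9 above 0, and the median over the 9032 named genes tested was -0.01. By class, the median was -0.04 for adherens junctions, 0.16 for desmosomes and -0.08 for tight junctions. Under median scaling, which shifts the median of all probes to -0.27 here, the median of the 22 genes became -0.38.

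The smallest p at 48 h belonged to Pard3, a scaffold of the apical polarity complex. Its probe ILMN_2648709 measured 6.63, 7.22 and 7.38 under anti-miR-135b and 7.45, 7.53 and 7.46 in the controls. The arms did not overlap, and the difference was -0.4 (SE 0.22, limma adjusted p = 0.812). Its other kept probe, ILMN_3136369, overlapped, with 7.19, 7.02 and 7.01 under anti-miR-135b and 7.53, 6.9 and 6.92 in the controls (difference -0.04).

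Alpha-catenin (Ctnna1), which links the cadherin complex to actin, measured 13.4, 13.27 and 13.34 under anti-miR-135b at 48 h and 12.81, 13.3 and 12.91 in the controls. The difference was 0.33 (SE 0.2, limma adjusted p = 0.824), and it was -0.3 under median scaling. Beta-catenin (Ctnnb1), the cadherin partner that also acts in Wnt signalling, has a pair of kept probes. ILMN_2696575 measured 12.78, 13.52 and 12.51 under anti-miR-135b and 13.2, 13.6 and 13.2 in the controls, a difference of -0.4 (SE 0.25, limma adjusted p = 0.829). The other probe, ILMN_2994460, differed by -0.04, with 13.98, 14.28 and 14.08 under anti-miR-135b against 14.08, 14.37 and 14.02 in the controls.

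At 72 h, within chip 2, the 3 adherens junction genes and desmoglein 2 had lower means under anti-miR-135b, without passing the threshold, and 7 of 11 tight junction genes had higher ones. None of the 30 probes passed the adjusted threshold, against 0% of all probes. An unadjusted p under 0.05 was reached by 2 of the 30 (6.67%, both lower), against 7.13% of all probes in either direction and 2.64% lower. The arms did not overlap in 4 of the 30 (13.3%, all lower), against 15.1% of all probes in either direction and 7.06% lower. Counted in either direction, both shares are near those of the whole array.

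Desmoglein 2 (Dsg2), a desmosomal cadherin of simple epithelia, had the smallest p at 72 h. Probe ILMN_1242566 measured 7.75, 7.95 and 7.91 under anti-miR-135b and 8.78, 8.86 and 8.52 in the controls. The arms were well apart, and the anti-miR-135b mean was 7.87 ± 0.11 (SD, n = 3) against 8.72 ± 0.18 (SD, n = 3) in the controls. The difference was -0.85 (SE 0.2, 95% interval -1.26 to -0.44), which is a level 1.8-fold lower, with a limma p of 0.000398 and an adjusted p of 0.422. The deposited intensities did not overlap either, at 353.7, 453.8 and 384.4 under anti-miR-135b and 495.9, 601.4 and 540.5 in the controls.

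The 3 Dsg2 probes differed in how far the arms lay apart. ILMN_2955047 measured 7.54, 7.91 and 7.91 under anti-miR-135b at 72 h and 8.04, 8.33 and 8.1 in the controls, a difference of -0.37 (SE 0.27). ILMN_1215475 overlapped, with 7.42, 7.97 and 7.69 under anti-miR-135b and 7.62, 7.62 and 8.02 in the controls, a difference of -0.06 (SE 0.19). All 3 probes had differences above 0 at 48 h, of 0.14, 0.12 and 0.07. No annotation used here says which transcripts each probe reads.

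E-cadherin (Cdh1), the adhesion receptor of the adherens junction, measured 11.5, 11.83 and 11.93 under anti-miR-135b at 72 h and 12.38, 11.97 and 12.14 in the controls. The arms did not overlap, by a narrow margin, and the difference was -0.41 (SE 0.21, 95% interval -0.85 to 0.03, limma adjusted p = 0.714). Its deposited intensities overlapped, with 2752.3, 4841.6 and 3966 under anti-miR-135b and 3497.5, 3843.1 and 4639.2 in the controls. Ctnna1 measured 13.06, 13.45 and 13.15 under anti-miR-135b and 13.82, 13.55 and 13.6 in the controls, a difference of -0.43 (SE 0.2, limma adjusted p = 0.662). Under median scaling the differences of Cdh1 and Ctnna1 were -0.1 and -0.05, while that of Dsg2 probe ILMN_1242566 was -0.7.

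The arms overlapped for beta-catenin at 72 h, with differences of -0.07 and -0.03 for its pair of probes. The adherens junction median at 72 h was -0.41 over 3 genes, and it was -0.05 under median scaling and -0.18 without the first-numbered sample of each group at 48 and 72 h (samples 4, 7, 13 and 16). Desmosomes had a median of -0.11 over 5 genes. Plakophilins, the plaque proteins that bind desmosomal cadherins to desmoplakin, went both ways, with 0.44 (SE 0.33) for Pkp1, -0.11 for Pkp3, and -0.55, -0.32 and -0.25 for the 3 probes of Pkp2. Perp, a tetraspan protein of desmosomes, differed by 0.18 (SE 0.25). Tight junctions had a median of 0.17, with 7 of 11 genes above 0. Over all 22 genes the median was 0.01, with 11 above 0, against -0.01 over the named genes tested.

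**Figure D2:**
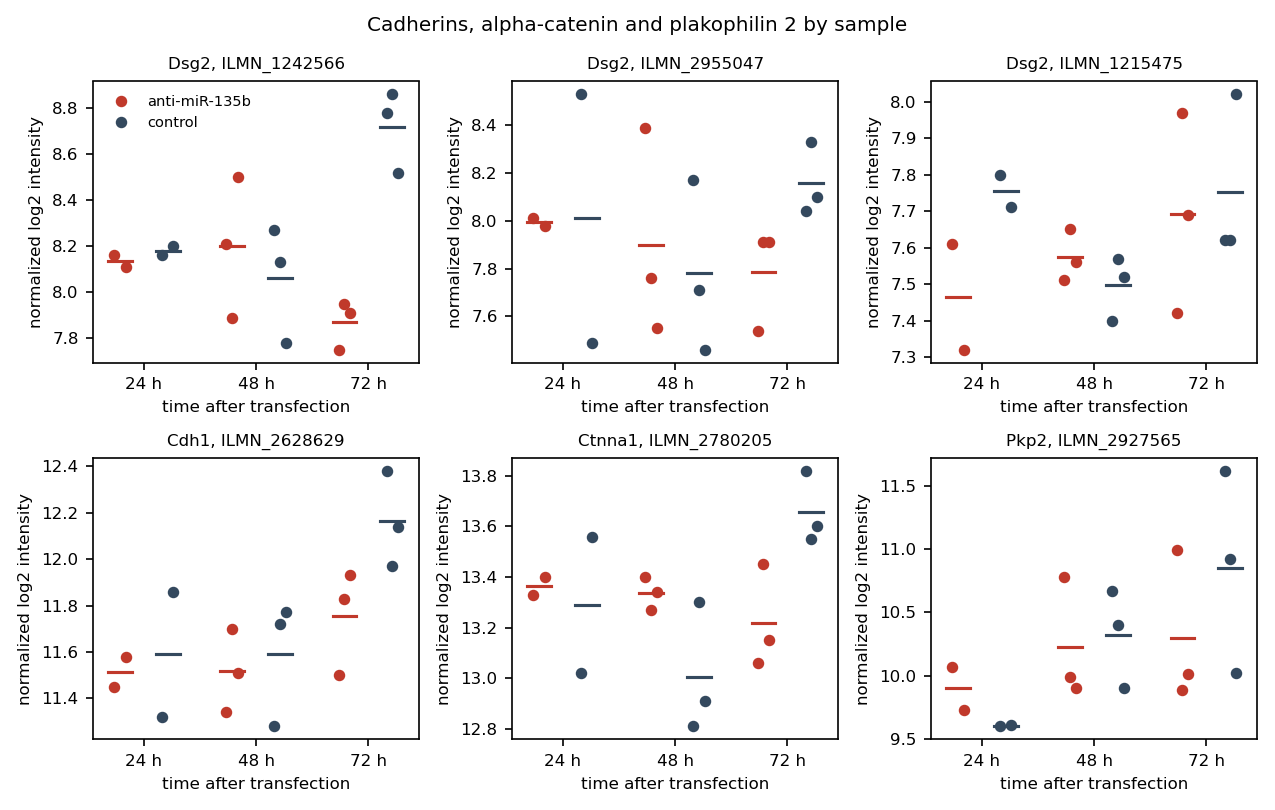
Each panel plots the normalized log2 intensity of 1 probe by time after transfection; points are samples, lines are group means, anti-miR-135b lies left of the control at each time. At 72 h the 3 anti-miR-135b points of Dsg2 probe ILMN_1242566 lie between 7.75 and 7.95, below the controls at 8.52 to 8.86, and those of Pkp2 overlap with the controls.

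The tight junction genes had inhibitor differences of -0.23 to 0.39 at 48 h and of -0.21 to 0.46 at 72 h. Claudins form the paracellular seal, and Cldn3 and Cldn4 are prominent in mammary epithelium. Cldn3 measured 13.23, 13.1 and 13.29 under anti-miR-135b at 48 h and 12.53, 12.99 and 13.35 in the controls. At 72 h it measured 13.15, 13.2 and 13.59 under anti-miR-135b and 13.2, 12.75 and 13.21 in the controls. The arms overlapped at both times, with differences of 0.25 (SE 0.22) and 0.26 (SE 0.22).

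Cldn4 varied more between samples of a group than between arms. It measured 11.56, 12.36 and 13.26 under anti-miR-135b at 48 h and 11.73, 11.5 and 12.79 in the controls, and at 72 h 12.18, 12.45 and 12.89 under anti-miR-135b and 12.1, 11.94 and 12.67 in the controls. Its differences were 0.39 (SE 0.4) at 48 h and 0.27 (SE 0.4) at 72 h. Cldn1, a broadly expressed sealing claudin, differed by -0.15 and -0.08 at 48 and 72 h, Cldn7 by 0 and -0.13, Cldn12 by -0.02 and 0.17, and Cldn23 by -0.08 and -0.11.

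Occludin (Ocln), a tetraspan protein of the tight junction strand, differed by -0.18 (SE 0.26) at 48 h and 0.34 (SE 0.26) at 72 h. The ZO scaffolds Tjp1 (ZO-1) and Tjp3 (ZO-3) differed by -0.16 and -0.21 for Tjp1, and by 0.14 and 0.06 for the brighter probe of Tjp3. Junctional adhesion molecule A (F11r) differed by -0.17 at 48 h and 0.3 at 72 h. Marveld3, a MARVEL-domain relative of occludin, differed by -0.23 (SE 0.27) and 0.46 (SE 0.27). None of these had an unadjusted p under 0.05 at 48 or 72 h.

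The mean of the 48 and 72 h differences gave the narrowest intervals among the inhibitor comparisons. It used 6 samples per arm within chips, and all 30 member intervals lay within a log2 difference of 1 of 0, from a lowest bound of -0.86 to a highest of 0.92. A 2-fold change common to both times lies outside every one of these 95% intervals, which are not adjusted for the number of probes. In 0 of the 30 were the arms apart in the same direction at both 48 and 72 h, against 0.996% of all probes. None of the 30 passed the adjusted threshold, against 0% of all probes. An unadjusted p under 0.05 was reached by 1 (3.33%, lower), against 7.84% of all probes and 4% lower. The probe with that p was Dsg2 probe ILMN_1242566, at -0.35 (SE 0.14, limma adjusted p = 0.572). Cdh1 followed at -0.24 (SE 0.15, limma adjusted p = 0.713) and Cldn3 at 0.25 (SE 0.16, limma adjusted p = 0.714). The median over the 22 genes was 0.05, with 12 above 0, and it was -0.09 under median scaling.

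**Figure D3:**
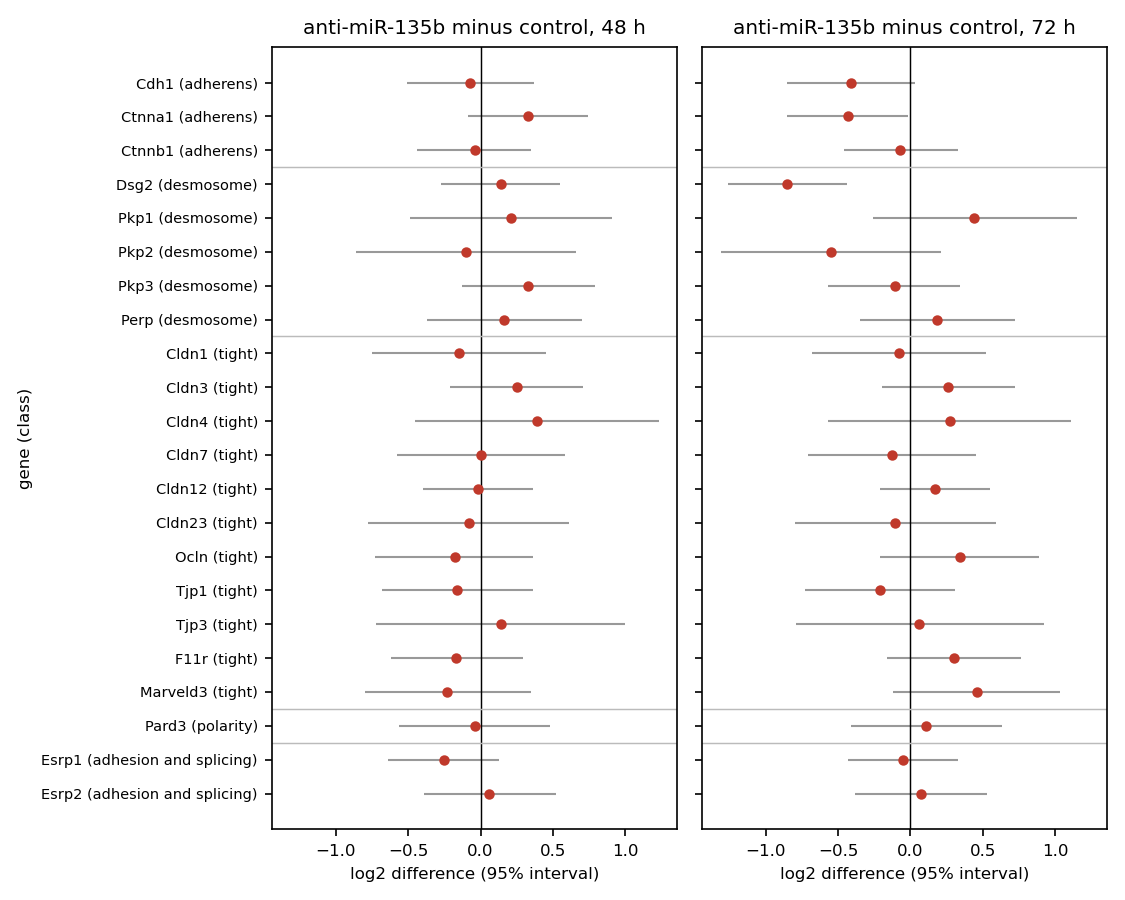
Points are log2 differences, anti-miR-135b minus control, of the brightest kept probe of each of 22 junction genes at 48 h and at 72 h, and bars are 95% intervals. At 72 h the intervals of Dsg2 (-1.26 to -0.44) and Ctnna1 (-0.85 to -0.02) exclude 0, and at 48 h every interval includes 0.

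Whether the inhibitor difference changed between 48 and 72 h was tested as an interaction. None of the 30 probes passed, against 0% of all probes, and 2 had an unadjusted p under 0.05 (6.67%, both lower), against 5.5% of all probes and 2.85% lower. Dsg2 probe ILMN_1242566 changed by -0.99 (SE 0.28, limma adjusted p = 0.852) and Ctnna1 by -0.76 (SE 0.28, limma adjusted p = 0.852). Pard3 probe ILMN_2648709 followed at 0.6 (SE 0.32). Under median scaling the interaction of Ctnna1 was 0.25, beside a median of 0.37 over all probes.

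At 24 h the 4 member probes with an unadjusted p under 0.05 (13.3%) were all higher in anti-miR-135b samples, against 4.06% of all probes in either direction and 2.51% higher, and they belong to Esrp1, Cldn12, Marveld3 and Cldn23. None passed the adjusted threshold, against 0% of all probes. In 11 of the 30 probes (36.7%) the 2 anti-miR-135b samples lay apart from the 2 controls, 9 of them higher, against 32.9% of all probes in either direction and 16.4% higher. The median over the 22 genes was 0.12, with 16 above 0, and for tight junctions it was 0.28, with 8 of 11 above 0. Without anti-miR-135b sample 12 the tight junction median was 0.08 and without sample 11 it was 0.51. Because the arms lie on different chips here, these values cannot be told apart from a chip difference.

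Esrp1, an RNA-binding protein that sets epithelial splicing, measured 13.18 and 13.51 in anti-miR-135b samples at 24 h and 12.55 and 12.76 in the controls, a difference of 0.69 (SE 0.22, limma adjusted p = 1). Cldn12, a claudin that lacks the usual PDZ-binding end, measured 9.8 and 9.63 against 9.28 and 8.95 in the controls (0.59, SE 0.22, limma adjusted p = 1). Marveld3 probe ILMN_2632585 measured 11.41 and 11.86 against 10.94 and 10.82 in the controls (0.75, SE 0.34, limma adjusted p = 1). In all 3 the arms were apart at 24 h. Cdh1 was not, with 11.45 and 11.58 in anti-miR-135b samples and 11.32 and 11.86 in the controls (difference -0.07).

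In the comparisons over time, members of tight and adherens junctions and both splicing regulators passed the threshold. Counted in either direction, the shares of member probes called were near those of the whole array. Under anti-miR-135b, 72 h was compared with 24 h within chip 2, where array position differed between the times and cannot be told apart from time. Of the 30 probes, 3 passed the adjusted threshold, all lower at 72 h (10%), against 7.98% of all probes in either direction and 3.77% lower. An unadjusted p under 0.05 was reached by 6 (20%), against 23.1% of all probes. The groups did not overlap in 15 of the 30 (50%), against 44.1% of all probes. The called genes were Cldn12, Marveld3 and Esrp1.

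Marveld3 had the largest fall. Probe ILMN_2632585 measured 10.28, 10.31 and 10.31 at 72 h, against 11.41 and 11.86 at 24 h, and the groups lay far apart. The difference was -1.34 (SE 0.31, limma adjusted p = 0.0134), or 2.53-fold lower. The deposited intensities were 1238.2, 1761.4 and 1311.3 at 72 h, against 3778.4 and 3273.8 at 24 h. The dimmer Marveld3 probe, ILMN_2711608, measured 7.49, 7.92 and 7.73 at 72 h and 7.99 and 7.74 at 24 h, a difference of -0.15 (SE 0.25).

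Cldn12 measured 8.64, 8.84 and 8.76 at 72 h under anti-miR-135b, against 9.8 and 9.63 at 24 h. The difference was -0.97 (SE 0.2, limma adjusted p = 0.00838), or 1.95-fold lower, and its intensities were 505.7, 723 and 549.4 at 72 h, against 1358.2 and 893.5 at 24 h. Esrp1 measured 12.52, 12.66 and 12.63 at 72 h, against 13.18 and 13.51 at 24 h. It fell by 0.74 (SE 0.2, limma adjusted p = 0.0324).

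All 3 calls rest on the pair of 24 h samples. Without anti-miR-135b sample 12, none of the 3 passed, with a difference of -1.05 (adjusted p = 0.0964) for Cldn12, -1.11 (0.237) for Marveld3 and -0.58 (0.37) for Esrp1. Over the whole array that run called 25 probes, against 1025 with all samples. Without sample 11, Marveld3 alone passed, while Cldn12 had a difference of -0.88 (adjusted p = 0.0754) and Esrp1 of -0.91 (0.0634), and 474 probes were called over the array. Esrp1 also missed the threshold when any 1 of the 72 h samples 16, 17 and 18 was left out. None passed under median scaling, with a difference of -1.06 (adjusted p = 0.0503) for Cldn12, -1.33 (0.0754) for Marveld3 and -0.57 (0.274) for Esrp1, and 377 probes were called over the array.

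The other claudins had differences in both directions over this interval. Cldn23 differed by -0.95 (SE 0.37, limma adjusted p = 0.12), with 7.6, 8.14 and 8.38 at 72 h and 8.92 and 9.06 at 24 h, and the groups were apart. Cldn3 differed by 0.5 (SE 0.25), with 13.15, 13.2 and 13.59 at 72 h and 12.87 and 12.74 at 24 h. Cldn1, Cldn4 and Cldn7 had differences of -0.42, -0.56 and -0.09. The tight junction median was -0.42, with 3 of 11 genes above 0, against 0.03 over the named genes tested, and it was -0.65 without anti-miR-135b sample 11 and -0.18 without sample 12. Over the same samples 2 of the 6 epithelial markers kept passed the threshold, both higher at 72 h: the simple epithelial keratins Krt18, by 1.33 (limma adjusted p = 0.00285), and Krt8, by 0.98 (limma adjusted p = 0.00571). The list had a median of 0.14 with 4 of 6 above 0, and Krt14 had -0.92 (limma adjusted p = 0.155). The part of these markers in the junction values was not tested. In these bulk samples, fewer cells of a kind and less RNA per cell cannot be told apart.

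In the controls, 48 h was compared with 24 h within chip 1, again with position and time together. None of the 30 probes passed, against 0.926% of all probes, and 2 had an unadjusted p under 0.05 (6.67%, both lower), against 12.4% of all probes and 5.3% lower. They were the probes of Ctnnb1. ILMN_2994460, the brightest adherens junction probe, measured 14.08, 14.37 and 14.02 at 48 h, against 14.91 and 15.04 at 24 h, a difference of -0.82 (SE 0.21, limma adjusted p = 0.0815). ILMN_2696575 measured 13.2, 13.6 and 13.2 at 48 h, against 13.89 and 14.26 at 24 h (-0.75, SE 0.28, limma adjusted p = 0.268). The groups were apart for both probes in normalized values and overlapped in the deposited intensities. ILMN_2994460 passed with no background correction (limma adjusted p = 0.0252) and in the authors' deposited table of values (0.00446), and under median scaling the differences were 0.14 and 0.11, beside a median of 0.32 over all probes.

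Esrp1 measured 13.2, 13.02 and 12.9 in controls at 48 h, against 12.55 and 12.76 at 24 h; the groups were apart and the threshold was not passed (0.38, SE 0.2, limma adjusted p = 0.471). Under median scaling, which moves the median of all probes to 0.32 here, it was 1.14 (limma adjusted p = 0.0202). Cdh1 differed by 0. The groups did not overlap in 13 of the 30 probes (43.3%), against 28.8% of all probes. Leaving out control sample 2 moved the adherens junction median from its full value of -0.28 to -0.55, and leaving out control sample 3 moved it to -0.01.

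Across both arms, 72 h was compared with 48 h, a comparison between the chips in which chip and time cannot be told apart. Of the 30 probes, 3 passed, all higher at 72 h (10%), against 12.8% of all probes in either direction and 5.78% higher. An unadjusted p under 0.05 was reached by 7 (23.3%), against 26.1% of all probes. The called probes were those of Esrp2 and both of Ctnnb1. Esrp2, the second epithelial splicing regulator, measured 9.31, 9 and 9.13 under anti-miR-135b at 72 h and 8.71, 8.2 and 7.95 at 48 h. In the controls it measured 9.22, 9.06 and 8.94 at 72 h and 8.53, 8.18 and 7.97 at 48 h. In normalized values every 72 h sample lay above every 48 h sample. The difference was 0.85 (SE 0.15, limma adjusted p = 0.00145), or 1.8-fold higher. In the deposited intensities of Esrp2 the 72 h and 48 h groups were not apart within both arms. The inhibitor difference of Esrp2 was 0.06 at 48 h and 0.07 at 72 h.

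Ctnnb1 probe ILMN_2994460 measured 14.4, 14.69 and 14.73 under anti-miR-135b at 72 h and 13.98, 14.28 and 14.08 at 48 h. In the controls it measured 14.44, 14.69 and 14.89 at 72 h and 14.08, 14.37 and 14.02 at 48 h. These normalized values were apart within each arm, and the deposited intensities of this probe were not apart within both arms. The difference was 0.51 (SE 0.13, limma adjusted p = 0.0177), and that of ILMN_2696575 was 0.56 (SE 0.18, limma adjusted p = 0.0459). Under median scaling neither probe passed, with differences of 0.23 (limma adjusted p = 0.508) for ILMN_2994460 and 0.27 (limma adjusted p = 0.565) for ILMN_2696575. Over the 3 times, both arms of ILMN_2994460 were at their lowest at 48 h, with means of 15.01, 14.11 and 14.61 under anti-miR-135b at 24, 48 and 72 h and of 14.97, 14.16 and 14.67 in the controls. The call of ILMN_2696575 was lost in 9 of the 12 runs that left out 1 sample, with adjusted p up to 0.131. In an additive model with chip as a term, none of the 3 passed, with a difference of 0.95 (adjusted p = 0.362) for Esrp2 and of 0.41 (0.711) and 0.24 (0.907) for Ctnnb1. That model called 1 probe over the whole array in this comparison, against 1647 without the chip term.

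Cdh1 was higher at 72 h than at 48 h by 0.4 (SE 0.15, limma adjusted p = 0.0829), and it passed in the authors' deposited table (0.49, limma adjusted p = 0.00753). The adherens junction median of this comparison was 0.4, with 3 of 3 genes above 0, against 0.01 over the named genes tested, and it was 0.06 under median scaling. Tight junctions had a median of 0.09, with 6 of 11 above 0, and -0.2 under median scaling, where the median of all probes was -0.13. In 3 of the 30 probes (10%) the 72 h and 48 h groups did not overlap within either arm, in the same direction, against 7.54% of all probes.

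**Figure D4:**
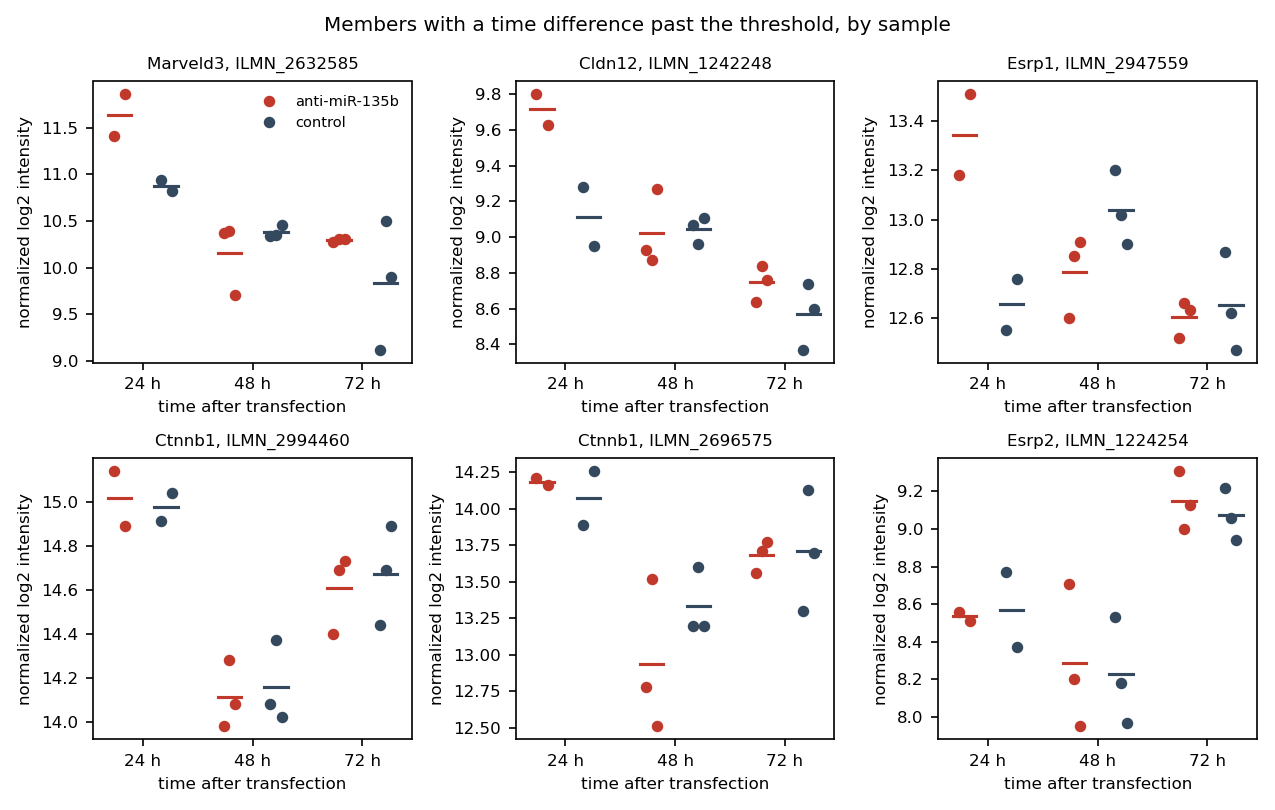
Each panel plots the normalized log2 intensity of 1 probe against time; points are samples, lines are group means, anti-miR-135b lies left of the control at each time. Marveld3, Cldn12 and Esrp1 have their highest means in the 24 h anti-miR-135b samples, both Ctnnb1 probes have their means lowest at 48 h, and Esrp2 lies between 8.94 and 9.31 in all 72 h samples. All 48 h samples and the 24 h controls lay on chip 1 and the other samples on chip 2, so times also differ by chip.

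The members varied slightly more than the array as a whole. The range of the 6 group means had a median of 0.74 over the 30 member probes and 0.61 over all probes kept, and the SD within groups had a median of 0.33 and 0.28. Marveld3 probe ILMN_2632585 had the widest range among members, 1.8, followed by Ctnnb1 probe ILMN_2696575 and Pkp2 probe ILMN_2927565, at 1.25 each. Cldn12 had the widest range for its SD within groups, 1.14 against 0.16. For Pkp2 probe ILMN_2927565, the brightest of the desmosome probes, the SD within groups was 0.53. Its values were 10.07 and 9.73 under anti-miR-135b and 9.6 and 9.61 in the controls at 24 h, 10.78, 9.99 and 9.9 against 10.67, 10.4 and 9.9 at 48 h, and 10.99, 9.89 and 10.01 against 11.62, 10.92 and 10.02 at 72 h. Of the polarity gene Pard3, the brighter probe ILMN_3136369 ran only from 6.76 to 7.81 over all samples.

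Sequence in front of the genes was compared by motif. CAGGTG, read on either strand, is an E-box bound by the repressors of epithelial genes in the Snail and Zeb families, and it was counted in the 300 bases from 250 before to 50 after each start in RefSeq (GRCm38.p6). Of the 34 members, 20 had such a window, and 13 of these (65%) held the motif in at least 1 window, against 22.6% of 27025 genes. The carriers were Cldn3, Cldn4, Cldn6, Cldn7, Dsp, Epcam, F11r, Marveld2, Ocln, Pard3, Pard6b, Pkp4 and Tjp3. Cldn12, Ctnnb1 and Cgn had windows, and none of these held the motif. Any other member not listed either had no window or had no match in its windows. For those members, absence from the list does not mean that the motif is absent, and the share covers only the 20 with a window. The Grainyhead motif AACCNGTT, also read on either strand, was found in 1 of the 20 (5%), Cgn, against 2.35% of genes. A match is a description of these letters and not a bound site.

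Promoter windows are shown for a pair of neighbouring claudin genes that carry the E-box and for a pair of genes called over time, Cldn12 and Ctnnb1, whose windows shown do not. Capitals mark CAGGTG or its reverse complement. Cldn3 is at chr5:134985964-134986263 on the plus strand, Cldn4 at chr5:134946885-134947184 on the minus strand, Cldn12 at chr5:5514927-5515226 on the minus strand and Ctnnb1 at chr9:120933150-120933449 on the plus strand.
Cldn3: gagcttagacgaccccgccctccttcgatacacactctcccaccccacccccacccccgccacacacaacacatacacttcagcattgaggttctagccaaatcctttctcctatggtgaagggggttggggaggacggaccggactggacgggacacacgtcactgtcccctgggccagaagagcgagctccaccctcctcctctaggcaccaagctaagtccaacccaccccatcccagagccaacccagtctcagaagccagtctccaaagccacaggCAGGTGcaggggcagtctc
Cldn4: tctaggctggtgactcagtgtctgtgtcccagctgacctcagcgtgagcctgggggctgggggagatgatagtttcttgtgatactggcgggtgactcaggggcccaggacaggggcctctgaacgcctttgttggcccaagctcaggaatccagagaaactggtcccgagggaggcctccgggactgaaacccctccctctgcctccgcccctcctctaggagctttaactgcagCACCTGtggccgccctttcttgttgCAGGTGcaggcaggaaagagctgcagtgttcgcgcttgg
Cldn12: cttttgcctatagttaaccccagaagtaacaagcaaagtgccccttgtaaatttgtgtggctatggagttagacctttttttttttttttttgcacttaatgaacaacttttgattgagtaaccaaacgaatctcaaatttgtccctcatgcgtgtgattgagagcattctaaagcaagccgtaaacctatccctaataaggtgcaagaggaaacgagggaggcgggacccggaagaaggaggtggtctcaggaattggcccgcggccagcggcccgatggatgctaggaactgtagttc
Ctnnb1: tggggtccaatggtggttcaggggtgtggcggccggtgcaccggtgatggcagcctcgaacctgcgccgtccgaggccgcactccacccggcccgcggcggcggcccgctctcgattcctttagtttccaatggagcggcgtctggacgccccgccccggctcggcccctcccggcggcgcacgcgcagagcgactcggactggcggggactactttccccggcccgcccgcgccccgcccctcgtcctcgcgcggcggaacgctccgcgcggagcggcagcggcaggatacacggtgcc

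Other genes of the same structures showed no call in the inhibitor comparisons. The lists held 6 of 10 partners of adherens junctions with a kept probe, 7 of 14 other desmosome and hemidesmosome genes, 12 of 18 other tight junction genes, 8 of 13 other polarity genes, 3 of 5 gap junction genes and 10 of 15 transcription factors of the epithelial state. None of these 46 genes passed the adjusted threshold at 24 h, 48 h or 72 h, in the mean or in the interaction. In the mean of 48 and 72 h the unadjusted p was under 0.05 for 1 adherens partner (lower), 2 desmosome and hemidesmosome genes (both lower), 1 tight junction gene (higher), 2 polarity genes (both lower), 1 transcription factor (lower) and 0 gap junction genes. That is 7 of the 46 genes, 6 of them lower, where 7.84% of all probes reached it and 4% did so lower. The polarity gene Mpp5, also named Pals1, a scaffold of the Crumbs complex, had the smallest p of these. It measured 6.84, 7.34 and 6.56 under anti-miR-135b at 48 h and 8.78, 8 and 8.17 in the controls, and at 72 h 6.8, 7.59 and 7.07 under anti-miR-135b and 7.27, 8.47 and 8.6 in the controls. The arms were apart at 48 h and overlapped at 72 h, and the mean difference was -1.18 (SE 0.25, limma adjusted p = 0.227).

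Grhl2, a transcription factor that maintains epithelial junction genes, differed by -0.6 in that mean (SE 0.19, limma adjusted p = 0.434), and Itga6, the laminin receptor subunit of hemidesmosomes, by -0.65 (SE 0.21, limma adjusted p = 0.434). Cldn15, a claudin that forms cation pores, differed by 0.52 (SE 0.15, limma adjusted p = 0.361), and the adherens partner Nectin3 by -0.49 (SE 0.17, limma adjusted p = 0.496). Over time under anti-miR-135b, 3 of the 46 genes passed at 72 h against 24 h, where 7.98% of all probes did. Vinculin (Vcl), an actin-binding partner of alpha-catenin, rose by 1.06 (limma adjusted p = 0.0134) and the epithelial factor Elf3 by 0.95 (0.018), and Klf5 fell by 1.46 (0.0437). Across the chips, 72 h against 48 h, 5 of the 46 passed, where 12.8% of all probes did. Vcl, Itga6, Elf3 and the tight junction receptor Cxadr were higher, by 0.59, 0.82, 0.76 and 0.73, and Nectin3 lower by 0.7 (largest limma adjusted p of these 0.0165).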

How the data were processed

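RNA of 16 samples of TUBO cells was measured on 2 bead chips, 1 array a sample. The deposited non-normalized table gives a bead-averaged intensity per probe, made by the authors with GenomeStudio, per the submitters' processing notes, which name no version. A second deposited table carries the authors' normalized log2 values for these arrays, by a method not given in the sources used here (column medians 8.24 to 8.26), and served as an alternative; its scale was taken from the values. The intensities were normexp corrected (offset 50) and quantile normalized with limma 3.58.1 in R 4.3.3. Probes with a mean over arrays above the median were kept (12848 of 25697). Names came from the platform annotation, and places and sequences from RefSeq (GRCm38.p6).

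A model with 6 group means was fitted per probe (lmFit, eBayes); p-values are two-sided and Benjamini-Hochberg adjusted over all kept probes within a comparison, at 0.05. The brightest kept probe stood for a gene in class medians, which carry no test. Named for each comparison were the called member probes, or the 3 with the smallest p, Cdh1, and the brightest probe of each class; other members were given by differences or ranges, and Cldn23 was singled out after its values were seen. The members and lists were chosen with earlier results of these data known. Alternatives were the background correction, median scaling, the authors' table, the filter, array weights, the samples in the fit, chip as a term and leaving out each sample. The number of arrays limits the precision. The steps were tested on simulated data.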

Additional observations from a re-analysis of the deposited data

How the results depend on the processing

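The inhibitor comparisons gave 0 calls among the members under every alternative run, where 0 to 0.0623% of all probes were called. The count of member probes called in controls at 48 h against 24 h was 0, against 0.926% of all probes. It was 1 with no background correction (1.07% of all probes), 1 in the authors' table (1.32%) and 1 in the additive model with chip (1.18%), Ctnnb1 each time. Under median scaling it was 5 (Cldn3, Pkp1, Esrp1 and a pair of Pkp2 probes), where 9.86% of all probes were called. The count at 72 h against 24 h under anti-miR-135b was 3, and it was 0 under median scaling and 2 when any 1 of the 72 h samples was left out. Over all probes that comparison called 7.98%, 2.93% under median scaling and 3.43 to 5.27% when 1 of the 72 h samples was left out. Leaving out a 24 h sample, described above, took away further member calls and left 1 sample in that group. The count across both arms at 72 h against 48 h was 3, against 12.8% of all probes. It was 6 in the authors' table (13.4% of all probes) and 0 in the additive model with chip (0.00778%). Under median scaling it was 3 (12.7% of all probes), without either Ctnnb1 probe. When 1 sample was left out it was 2 to 3, where 9.08 to 15.7% of all probes were called. The cause was not tested.

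Median scaling moved the median of all probes to 0.12 at 24 h, -0.27 at 48 h, 0.37 in the interaction, 0.32 in controls at 48 h against 24 h and -0.13 at 72 h against 48 h. Signs turned under it for Cdh1 at 24 h (0.15), Ctnna1 at 48 h (-0.3), Ctnna1 and Cdh1 in the interaction (0.25 and 0.6), and both Ctnnb1 probes in controls at 48 h against 24 h (0.14 and 0.11). In the authors' table Cdh1 turned at 48 h (0.04) and in controls at 48 h against 24 h (-0.14). With 1 sample left out, Cdh1 ran from -0.34 to 0.2 at 24 h, from -0.23 to 0.02 at 48 h and from -0.27 to 0.27 in controls at 48 h against 24 h.

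Class medians moved by more than 1 SD between replicates as follows. Under median scaling the median of the 22 genes was -0.38 at 48 h, 0.57 in the interaction, 0.4 in controls at 48 h against 24 h and -0.09 at 72 h against 48 h. That of adherens junctions was -0.62 at 48 h, -0.05 at 72 h, 0.6 in the interaction, 0.52 in controls at 48 h against 24 h and 0.06 at 72 h against 48 h. That of tight junctions was -0.49 at 48 h, 0.78 in the interaction, 0.37 in controls at 48 h against 24 h and -0.2 at 72 h against 48 h, and that of desmosomes was 0.26 in the interaction. In the authors' table the adherens junction median was 0.27 at 48 h and -0.57 in controls at 48 h against 24 h, where array weights gave -0.05. Without samples 4, 7, 13 and 16, chosen after seeing the data, it was -0.18 at 72 h and -0.06 in the interaction. With 1 sample left out, adherens junctions ran from -0.19 to 0.2 at 24 h and from -0.55 to -0.01 in controls at 48 h against 24 h, and tight junctions from 0.08 to 0.51 at 24 h, from -0.15 to 0.15 at 48 h, from -0.24 to 0.32 in the interaction and from -0.65 to -0.18 at 72 h against 24 h under anti-miR-135b.

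No paired analysis was possible because no label number is shared between groups, so the labels give no pairs. The place of a sample's number within its run of 3 is a hint from the data, not the design. At 48 and 72 h the first place lay at array positions A and D, the second at B and E and the third at C and F. Place and array position therefore cannot be told apart. Deviations of samples in the same place correlated at 0.15 to 0.56 for the first place, 0.01 to 0.21 for the second and 0.15 to 0.5 for the third. A block by that place, added after seeing the data, called 3 probes over the array for the mean of 48 and 72 h (0 without it) and 286 in controls at 48 h against 24 h (119 without it). It changed no call of a member, and Dsg2 probe ILMN_1242566 at 72 h then had a limma adjusted p of 0.171. Depth cannot be given for intensities.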

Other observations

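In all 4 groups at 48 and 72 h the sample with the first label number (samples 13, 4, 16 and 7) stood at the same end for several junction genes. It had the highest value of its group for Pkp1, for Esrp2 and for a pair of Pkp2 probes, and the lowest for Cldn1, Tjp1, both Tjp3 probes and Dsg2 probe ILMN_1215475. This holds for 9 of the 30 member probes (30%), against 11.3% of all probes kept. For Pkp1 the first-numbered samples were at 10.39 (anti-miR-135b) against 9.87 (control) at 48 h and at 10.44 (anti-miR-135b) against 10.05 (control) at 72 h, with the other samples of these groups between 8.94 and 9.7. For Tjp3 probe ILMN_2723524 they were at 7.02 (anti-miR-135b) against 7.55 (control) at 48 h and at 7.58 against 6.9 at 72 h, with the others between 8.14 and 8.55. The labels do not say what the number stands for. The first-numbered samples lay at array positions A (control) and D (anti-miR-135b) on both chips, so number and array position cannot be told apart. Over all probes, deviations from the group means correlated at 0.01 to 0.56 between samples of the same place in different groups at 48 and 72 h (18 pairs) and at -0.53 to 0.21 between samples of other places (36 pairs).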
